A study of Rattus norvegicus with 4 samples.

Results

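Expression of 9 genes of fatty acid synthesis was compared between INS-1 cells grown as a 2D monolayer and INS-1 cells bioprinted in hydrogel (3D). The genes were taken from a fixed list of lipogenic symbols: Srebf1, Acss2, Acly, Me1, Acaca, Acacb, Fasn, Elovl6 and Elovl5. All 9 are among the 23360 gene symbols of the data. The rule names the genes and uses no measured value, but the list was chosen with earlier results of these data known. Messenger RNA was sequenced from 4 cultures, 2 per condition, all of the INS-1 832/3 line and all collected at passage 3 on day 5. This line is 1 clone of a rat insulinoma that carries a human insulin gene and is kept under Geneticin selection, and both conditions share these features and the same RPMI-1640 medium. The 2D cells were in standard monolayer culture with no hydrogel. The 3D cells were printed in GelXA LAMININK 411, a gelatin methacrylate gel with laminin-411, and crosslinked with light, so that the effects of matrix, printing and crosslinking cannot be told apart. The labels call the cultures biological replicates and do not say whether they were printed or seeded separately, so that p-values measure only the spread between these cultures, which may be technical.

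Fatty acids are built in the cytosol from acetyl-CoA. ATP citrate lyase (Acly) and acetyl-CoA synthetase (Acss2) supply acetyl-CoA, the acetyl-CoA carboxylases (Acaca, Acacb) turn it into malonyl-CoA, fatty acid synthase (Fasn) joins these units to palmitate with NADPH that malic enzyme (Me1) helps to provide, and the elongases (Elovl6, Elovl5) lengthen the product. Srebf1 encodes SREBP-1, a transcription factor made as a precursor in the membrane of the endoplasmic reticulum, whose released form activates many of these genes. In beta cells malonyl-CoA also inhibits carnitine palmitoyltransferase 1 and is one of the coupling factors linked to glucose-stimulated insulin secretion.

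The values are TPM, transcript abundances scaled for transcript length that sum to 1000000 in each sample, so that levels of different genes can be set side by side but sequencing depth is not retained. TPM were summed over the transcripts of a symbol. Between 19355 and 19959 transcripts per sample were above 0. The defining beta-cell transcripts were present in all cultures, and the 8 listed summed to 146681 and 159656 TPM in 2D and 156734 and 169388 TPM in 3D. Most of this sum was Ins1, with 114003 and 126460 TPM in 2D and 127527 and 137822 TPM in 3D. Before scaling, Iapp and Nkx6-1 were also higher in both 3D cultures than in either 2D culture. For Nkx6-1 the nearest values were 18.05 TPM in 2D replicate 2 and 18.06 TPM in 3D replicate 1. For Ins1 and Nkx6-1 the gap is narrower than the difference between the scaling factors of these 2 cultures, 0.960 and 1.01. Ins2, Pdx1 and Pcsk1 were lower in both, and Chga and Neurod1 overlapped. These marker values are descriptions with no test, and the unscaled TPM of the groups did not overlap in 74.2% of all genes tested. Most markers of other cells were low, with Cdh5 and Cldn5 (endothelium), Dcn and Lum (fibroblasts), Fabp4 (adipocytes) and Ttr (hepatocytes) listed at 0 in every culture. Summed TPM ran from 1.08 to 1.15 in 2D and from 1.40 to 1.68 in 3D for 5 endothelial markers, from 1.89 to 1.91 and from 2.26 to 2.35 for 5 fibroblast markers, from 39.3 to 44.2 and from 37.2 to 38.1 for 5 adipocyte markers, and from 1.19 to 1.46 and from 5.14 to 6.24 for 5 hepatocyte markers. Adipoq was not low and made up most of the adipocyte sum, with a mean of 36.7 TPM over the 4 cultures. Serpina1 made up most of the hepatocyte sum, with 0.871 and 0.745 TPM in 2D and 5.92 and 3.87 TPM in 3D. Among 5 other islet hormones Gcg stood out, with 41.9 and 73.8 TPM in 2D and 124 and 155 TPM in 3D, and its part in the results below was not tested. In a bulk sample fewer cells of a kind and less RNA per cell cannot be told apart.

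The level of the 9 genes spanned several orders of magnitude in both conditions. Acly was by far the most abundant, with a mean above that of 98.4% of all genes tested, and alone made up 68.5% and 70.7% of the summed TPM of the 9 genes in 2D and 73.1% and 72.8% in 3D. Me1 followed, then Fasn, Srebf1, Elovl5, Acaca, Acss2 and Elovl6, with Acacb last. This order of means was the same in both conditions. Neighbours in the order were separated in all samples of a condition, except Acaca and Acss2 in 2D and Elovl5 and Acaca in 3D, whose values overlapped. The sum over the 9 genes was 895 and 813 TPM in 2D and 933 and 932 TPM in 3D. Without Acly it was 282 and 239 TPM in 2D and 251 and 254 TPM in 3D, and the conditions overlapped.

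**Figure D1:**
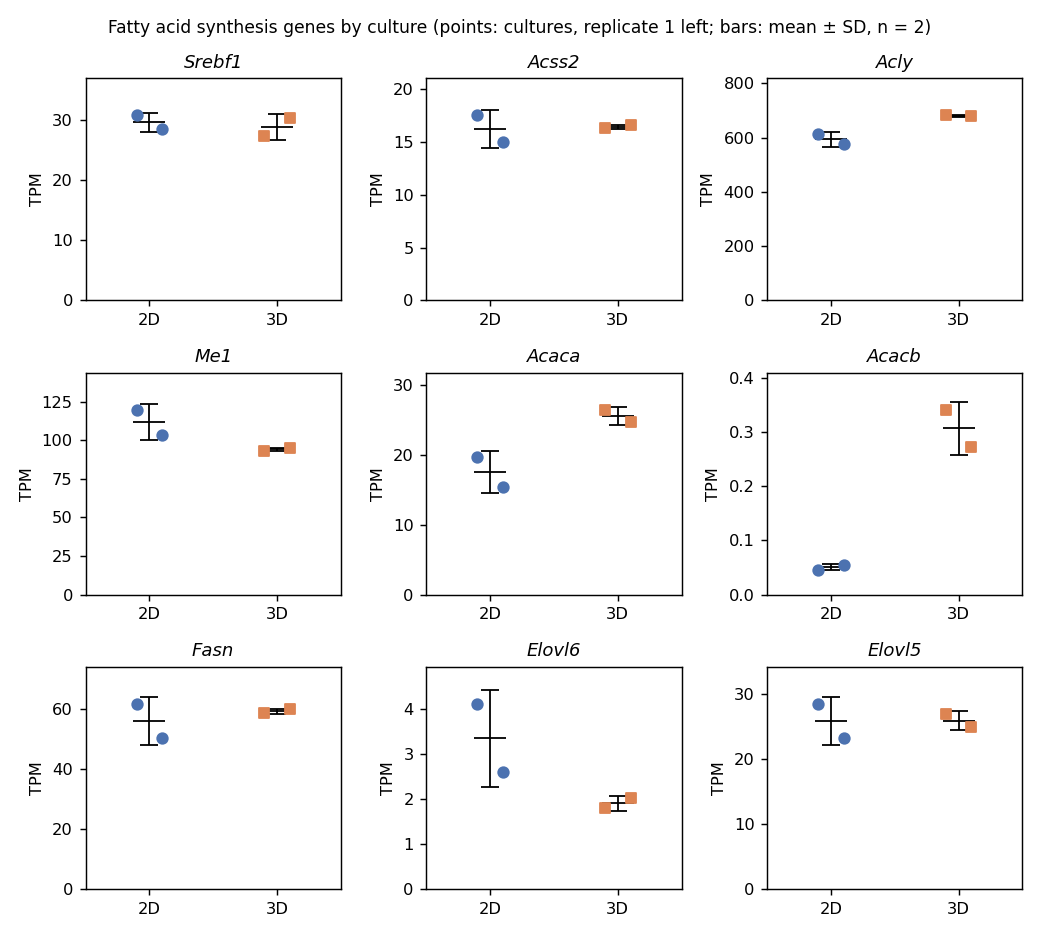
TPM of each of the 9 fatty acid synthesis genes (vertical axes, each from 0) in the 2D monolayer cultures (blue circles) and the 3D bioprinted cultures (orange squares), with the mean ± SD (n = 2). The 3D cultures lie above both 2D cultures for Acly, Acaca and Acacb, below both for Me1 and Elovl6, and overlap with them for Srebf1, Acss2, Fasn and Elovl5.

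Of the 9 genes, 8 had a mean of at least 1 TPM over the 4 samples and entered the test, limma's moderated test on scaled log2(TPM + 1) across 11960 genes with Benjamini-Hochberg adjustment. Acacb did not pass this minimum. Acaca was higher in 3D, and Me1 and Elovl6 were lower, each with an adjusted p below 0.05. The other 5 genes tested did not pass. Among all 11960 genes 38.0% passed in either direction, 18.5% as higher and 19.5% as lower in 3D, so that 3 of 8 is close to the background. The split by direction depended on the scaling and the minimum level. On TPM without scaling Acly and Acaca passed as higher and 0 of the 8 as lower. Among all genes 2258 then passed as higher and 1812 as lower. With no minimum level, Acaca and the near-0 Acacb passed as higher (adjusted p = 0.0493 and 0.0246 in limma). Me1 then passed as lower (0.0422) and Elovl6 did not pass, beside 1843 higher and 1745 lower of 16749 genes. On TPM without scaling, the groups did not overlap in 74.2% of the 11960 genes of the reported fit and in 4 of the 8 members. The median log2 fold change of the 8 genes was -0.028, beside -0.0031 over all genes tested, and the median of its size without regard to sign was 0.12, beside 0.22. With 2 cultures against 2, the smallest two-sided p of an exact permutation test on 1 gene is 0.333, and the calls depend on the moderated variance of limma.

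**Figure D2:**
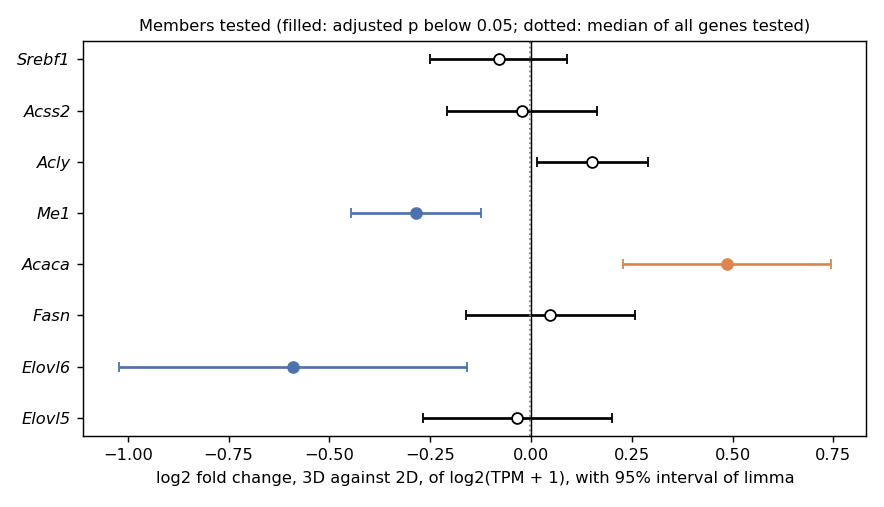
Log2 fold change of 3D against 2D (horizontal axis, on the log2(TPM + 1) scale) for the 8 genes tested, with limma's 95% interval, filled where the adjusted p is below 0.05. The interval of Acaca lies above 0, those of Me1 and Elovl6 lie below 0, that of Acly lies above 0 without passing the adjustment, and the other 4 include 0.

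Srebf1, the transcription factor of the pathway, was at 30.8 and 28.5 TPM in 2D and 27.4 and 30.4 TPM in 3D, and the conditions overlapped. Its log2 fold change was -0.080 (standard error 0.068, 95% interval -0.25 to 0.089, adjusted p = 0.379 in limma). A transcript cannot show how much of the precursor protein was processed. Of its 2 transcripts, ENSRNOT00000047053.6 carried between 88.4% and 100% of the gene's TPM, with 29.2 and 28.5 TPM in 2D and 25.9 and 26.8 TPM in 3D, lower in both 3D cultures. The other, ENSRNOT00000004753.5, was at 1.58 and 0 TPM in 2D and 1.53 and 3.53 TPM in 3D, and the conditions overlapped.

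RefSeq lists 2 start sites for Srebf1, and the 150 bases before each are given here because the gene encodes the only transcription factor among the members. Windows from 250 bases before to 50 after a start were searched on both strands for 4 motifs, the SRE (TCACNCCAC), an E-box (CACGTG), the CCAAT box (CCAAT) and the GC box (GGGCGG). These occur in 1.12%, 6.42%, 37.5% and 33.1% of all 33469 such windows of the rat build GRCr8. The table holds windows for 6 of the 9 genes, 7 windows in all, of which 0 hold these letters of the SRE, 1 the E-box, 6 the CCAAT box and 5 the GC box. Acaca, Fasn and Elovl6 have no entry. A match of letters is a description of the sequence and not a bound site. In the lines below capitals mark CCAAT and GC boxes on either strand, which do not overlap, and each sequence reads from 5′ to 3′ on the minus strand, at chr10:45529165-45529314 for the first window and chr10:45519011-45519160 for the second.
Srebf1 first window: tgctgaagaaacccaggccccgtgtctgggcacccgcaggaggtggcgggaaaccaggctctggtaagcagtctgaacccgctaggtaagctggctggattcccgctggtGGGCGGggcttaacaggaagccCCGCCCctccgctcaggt
Srebf1 second window: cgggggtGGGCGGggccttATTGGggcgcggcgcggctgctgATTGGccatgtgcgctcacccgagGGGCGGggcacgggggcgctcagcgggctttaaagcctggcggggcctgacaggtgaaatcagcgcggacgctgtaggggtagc
The first shows 2 GC boxes in this stretch. The second shows 2 GC boxes and 2 CCAAT boxes, all within the part farther from the start. The files do not pair these start sites with the transcripts quantified, so the levels of each cannot be assigned.

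Acetyl-CoA can come from citrate through Acly or from acetate through Acss2. Acly was at 613 and 575 TPM in 2D and 682 and 678 TPM in 3D. Both 3D cultures were above both 2D cultures, by 14.5% of the 2D mean. The means were 594 ± 27.1 TPM in 2D and 680 ± 2.53 TPM in 3D (SD, n = 2). Its log2 fold change was 0.15 (standard error 0.055, 95% interval 0.014 to 0.29), with an unadjusted p of 0.0362 and an adjusted p of 0.0778 in limma, which does not pass. On TPM as deposited, with no scaling between samples, the adjusted p was 0.0344 and the gene passed. Acss2 was at 17.5 and 15.0 TPM in 2D and 16.3 and 16.5 TPM in 3D. Both 3D values lie between the 2D values, and the 95% interval of its log2 fold change ran from -0.21 to 0.16 (adjusted p = 0.835 in limma).

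The Acly difference was unevenly spread over its transcripts. ENSRNOT00000023447.6 was at 384 and 370 TPM in 2D and 390 and 382 TPM in 3D, and the conditions overlapped. ENSRNOT00000043172.4 was at 229 and 205 TPM in 2D and 292 and 297 TPM in 3D, 1.36 times the 2D mean, with no overlap. The share of this second transcript in the gene's TPM was 37.3% and 35.7% in 2D and 42.8% and 43.7% in 3D. Another transcript, ENSRNOT00000077579.1, was listed at 0 throughout. Taken from the first transcript alone, the most abundant, the log2 fold change of Acly was -0.011 (adjusted p = 0.886 in limma). Reads common to transcripts of a gene are divided among them by the quantification, so single transcripts are less certain than the gene. These transcript values are descriptions with no test. The 150 bases before the RefSeq start of Acly, the most abundant member, lie at chr10:85963632-85963781 on the minus strand of GRCr8 and hold 2 GC boxes and 1 CCAAT box, in capitals.
Acly: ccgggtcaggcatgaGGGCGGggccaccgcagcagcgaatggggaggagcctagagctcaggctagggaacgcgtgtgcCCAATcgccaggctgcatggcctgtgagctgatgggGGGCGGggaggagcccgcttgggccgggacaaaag

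**Figure D3:**
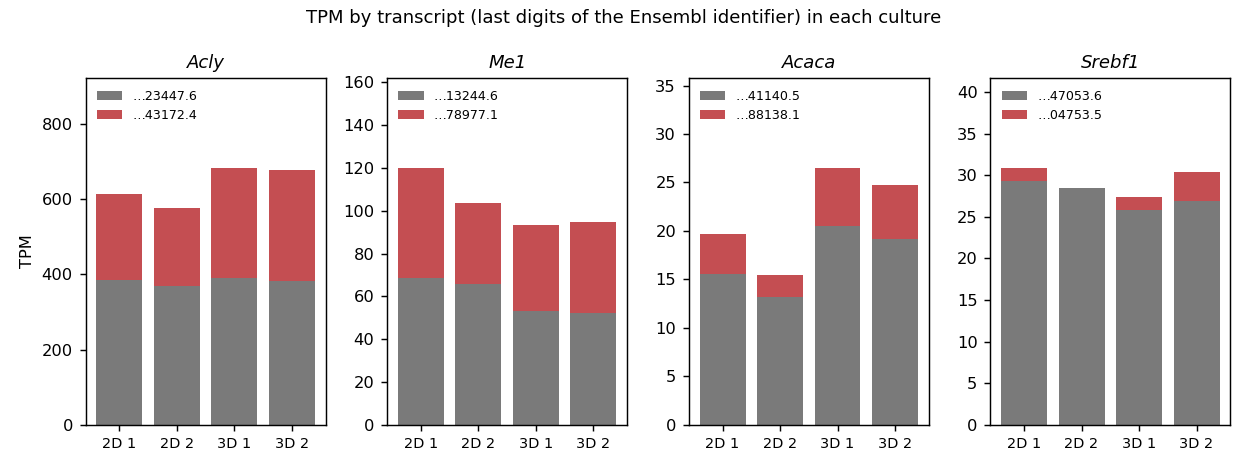
TPM of the transcripts above 0 (stacked bars from 0, named by the last digits of their Ensembl identifiers) of Acly, Me1, Acaca and Srebf1 in each of the 4 cultures. The upper segment of Acly is larger in both 3D cultures while the lower one is similar in all 4, and the lower segment of Me1 is smaller in both 3D cultures.

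Me1, cytosolic malic enzyme, which makes NADPH while turning malate into pyruvate, was at 120 and 104 TPM in 2D and 93.3 and 94.8 TPM in 3D. It fell by 15.8% of the 2D mean in 3D, from 112 ± 11.5 to 94.1 ± 1.06 TPM (SD, n = 2), with both 3D cultures below both 2D cultures. The log2 fold change was -0.28 (standard error 0.065, 95% interval -0.45 to -0.12, adjusted p = 0.0225 in limma). It did not pass on TPM without scaling (adjusted p = 0.0646), without 3D replicate 1 (0.137) or without 3D replicate 2 (0.123). The difference lay mainly in ENSRNOT00000013244.6, with 68.7 and 65.5 TPM in 2D and 53.1 and 52.4 TPM in 3D. For ENSRNOT00000078977.1 the values of 51.1 and 38.0 TPM in 2D enclosed those of 40.3 and 42.4 TPM in 3D. The ratio of Me1 to Acly within a culture, which no scaling can change, was 0.195 and 0.180 in 2D and 0.137 and 0.140 in 3D. Before the RefSeq start of Me1, at chr8:96540245-96540394 on the minus strand of GRCr8, the stretch holds 4 GC boxes, in capitals, and no CCAAT box, which makes Me1 the only one of the 6 genes in the table whose window lacks the CCAAT letters.
Me1: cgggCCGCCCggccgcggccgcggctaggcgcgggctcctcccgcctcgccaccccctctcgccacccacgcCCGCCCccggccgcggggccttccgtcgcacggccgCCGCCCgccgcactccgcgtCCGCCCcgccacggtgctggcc

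The 2 acetyl-CoA carboxylases make the malonyl-CoA that is both the building unit of the chain and the inhibitor of carnitine palmitoyltransferase 1. Acaca, which encodes the cytosolic form ACC1, was at 19.6 and 15.5 TPM in 2D and 26.5 and 24.7 TPM in 3D. It rose in 3D to 1.46 times the 2D mean, from 17.6 ± 2.97 to 25.6 ± 1.25 TPM (SD, n = 2), the largest rise among the 8 genes tested, with no overlap. The log2 fold change was 0.49 (standard error 0.10, 95% interval 0.23 to 0.74, adjusted p = 0.0186 in limma). At the threshold of 0.05 it passed in all 9 other fits that kept the 4 cultures, with adjusted p from 0.0035 to 0.0493 in limma. In the reported fit it did not pass at 0.01. Without 3D replicate 1 its adjusted p was 0.131 and without 3D replicate 2 it was 0.0772.

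Both Acaca transcripts were higher in both 3D cultures than in either 2D culture. ENSRNOT00000041140.5 was at 15.5 and 13.2 TPM in 2D and 20.5 and 19.2 TPM in 3D. ENSRNOT00000088138.1 was at 4.10 and 2.23 TPM in 2D and 5.96 and 5.52 TPM in 3D. Acacb, the mitochondrial form ACC2, was near 0, at 0.046 and 0.054 TPM in 2D and 0.341 and 0.273 TPM in 3D. Both 3D values were above both 2D values, all from 1 of its 4 transcripts, ENSRNOT00000078868.1, with the other 3 listed at 0. At such levels a ratio rests on few reads, whose number TPM do not retain, and no fold is drawn from it. Acaca was the dominant carboxylase transcript in all 4 cultures.

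Fasn, the multienzyme that builds palmitate, was at 61.8 and 50.3 TPM in 2D and 58.8 and 60.0 TPM in 3D. The 3D values lie within the 2D range, and the log2 fold change was 0.047 (standard error 0.084, 95% interval -0.16 to 0.26, adjusted p = 0.674 in limma). The ratio of Acaca to Fasn within a culture was 0.318 and 0.307 in 2D and 0.450 and 0.412 in 3D, separated between conditions. The ratio of Acly to Fasn was 9.93 and 11.4 in 2D and 11.6 and 11.3 in 3D and overlapped. The ratio of Fasn to Srebf1 was 2.00 and 1.76 in 2D and 2.15 and 1.98 in 3D and also overlapped.

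The elongases lengthen preformed chains in the endoplasmic reticulum, Elovl6 from palmitate to stearate and Elovl5 mainly on polyunsaturated chains. Elovl6 was low, at 4.10 and 2.58 TPM in 2D and 1.79 and 2.02 TPM in 3D, above only 10.3% of the genes tested. It fell, from 3.34 ± 1.08 to 1.90 ± 0.162 TPM (SD, n = 2), with both 3D cultures below both 2D cultures, but the 2D cultures themselves differed by more than 2D replicate 2 differed from either 3D culture. The log2 fold change was -0.59 (standard error 0.17, 95% interval -1.02 to -0.16, adjusted p = 0.0445 in limma). At the threshold of 0.05 it passed in 5 of 8 other fits that kept the 4 cultures. It did not pass on TPM without scaling (adjusted p = 0.0715), with no minimum level (0.0896) or on the table of most abundant transcripts (0.0546). Without 2D replicate 1 its log2 fold change was -0.36 (adjusted p = 0.0938) and without 2D replicate 2 it was -0.82 (0.0248). Without 3D replicate 1 its adjusted p was 0.185 and without 3D replicate 2 it was 0.132. Elovl5 was at 28.4 and 23.2 TPM in 2D and 26.9 and 24.8 TPM in 3D, with both 3D values inside the 2D range. Its log2 fold change was -0.034 (standard error 0.094, 95% interval -0.27 to 0.20, adjusted p = 0.792 in limma). Elovl5 exceeded Elovl6 by 6.93 and 8.98 times in 2D and by 15.0 and 12.3 times in 3D.

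The cultures of a condition did not vary alike. In 2D, replicate 1 was above replicate 2 for 8 of the 9 genes, with a median log2 ratio of 0.22. Over the 11874 genes tested that were above 0 in both 2D cultures, 66.9% were higher in replicate 1, with a median of 0.064. In 3D, 4 of the 9 genes were higher in replicate 1 and the median log2 ratio was -0.023, beside -0.021 over all genes. The median size of the log2 ratio between replicates was 0.23 in 2D and 0.10 in 3D for the 9 genes, and 0.11 and 0.079 over all genes. The SD of Acss2, Acly, Me1, Fasn and Elovl6 was larger in 2D than in 3D by a wide margin, as the plot of levels by culture shows. With either 3D culture left out, limma called 0 of the 8 genes, with 2 and 3 of them at an unadjusted p below 0.05. Among all genes 136 (without 3D replicate 1) or 1037 (without 3D replicate 2) were then called in place of 4541.

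**Figure D4:**
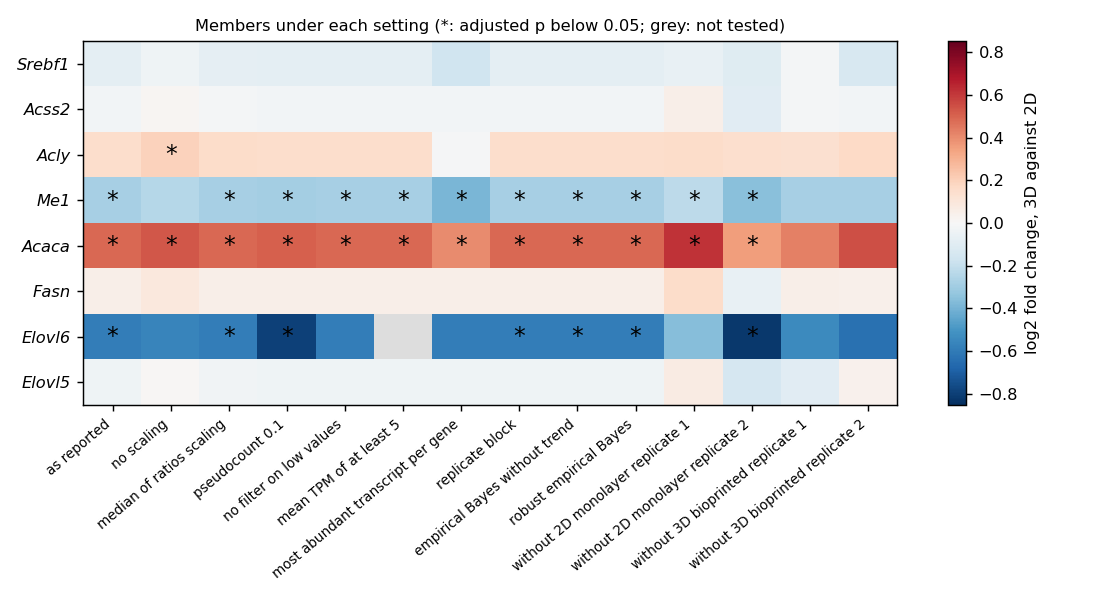
Log2 fold change of 3D against 2D (colour, on the log2 scale) of each gene under the reported setting and 13 others, with a star where the adjusted p is below 0.05. Acaca is positive and Me1 and Elovl6 negative in every setting that tested them, while no star remains with either 3D culture left out.

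Genes linked to the pathway were read from 7 further lists in the same fit, in which 26 of 82 genes tested passed. Without 3D replicate 1, limma called 0 of these 82 genes (24 at an unadjusted p below 0.05), so that no list kept a call, and without 3D replicate 2 it called 8. In the list of SREBP processing and control, 3 of 11 genes tested rose and 0 fell (also 0 at an unadjusted p below 0.05). The risers were Insig1, which holds the SREBP precursor in the endoplasmic reticulum, from 65.5 and 61.3 TPM to 83.1 and 80.0 TPM (log2 fold change 0.32, adjusted p = 0.0120 in limma), Mbtps2, the site-2 protease that releases SREBP (0.35, adjusted p = 0.0199), and Mid1ip1, an activator of acetyl-CoA carboxylase (0.28, adjusted p = 0.0372). Scap, the escort of the SREBP precursor, was at 14.7 and 15.0 TPM in 2D and 14.9 and 15.2 TPM in 3D (adjusted p = 0.811 in limma).

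In the supply of acetyl-CoA, citrate and NADPH, 2 of 9 genes fell and 0 rose, with 1 higher at an unadjusted p below 0.05 and 1 called higher on TPM without scaling. Aacs, which activates acetoacetate, went from 65.8 and 64.1 TPM in 2D to 45.4 and 49.0 TPM in 3D (-0.50 on the log2 scale, adjusted p = 0.0054 in limma). Me2, the mitochondrial malic enzyme, went from 49.4 and 45.2 TPM to 35.0 and 38.7 TPM (-0.39, adjusted p = 0.0105). Slc25a1, the mitochondrial citrate carrier that feeds Acly, was at 63.6 and 67.1 TPM in 2D and 78.5 and 75.2 TPM in 3D, separated but not past the threshold (log2 fold change 0.19, adjusted p = 0.0904 in limma).

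Among genes of desaturation and elongation other than the members, 4 of 13 fell and 0 rose, also 0 at an unadjusted p below 0.05. The fallers were Fads3 (log2 fold change -0.71, adjusted p = 0.0069 in limma), the dehydratase Hacd2 (-0.41, adjusted p = 0.0079) and the ketoreductase Hsd17b12 (-0.28, adjusted p = 0.0170), both of the elongation cycle that the elongases open, and the elongase Elovl7 (-0.53, adjusted p = 0.0095). Of these 13 genes 12 had a negative log2 fold change, with a median of -0.16, beside 6034 of all 11960 genes, with a median of -0.0031. The list was written with earlier results of these data known, so the count of signs is only a description. The unscaled TPM of the groups did not overlap in 7 of the 13, beside 74.2% of all genes, and 4 of 13 called is below the 38.0% of all genes. Scd was listed at 0 in both 2D cultures and at 0.020 and 0.018 TPM in 3D. Scd2, named after its values were seen, was the most abundant desaturase of the list, with 320 and 272 TPM in 2D and 271 and 280 TPM in 3D.

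Activation and esterification of fatty acids went both ways, with 4 of 14 genes higher and 4 lower (2 lower on TPM without scaling). Acsl1, an acyl-CoA synthetase, rose (log2 fold change 0.40, adjusted p = 0.0130 in limma), while the acyltransferase Agpat3 (-0.29, adjusted p = 0.0197) and the synthetase Acsl6 (-0.30, adjusted p = 0.0233) fell. In mitochondrial fatty acid synthesis, a separate pathway with its own enzymes, 2 of 7 fell and 0 rose, also 0 at an unadjusted p below 0.05: Ndufab1, the acyl carrier protein (-0.40, adjusted p = 0.0137 in limma), and Mcat (-0.32, adjusted p = 0.0228).

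On the side of malonyl-CoA use and its kinase, 2 of 10 genes rose and 1 fell, with 4 higher and 1 lower at an unadjusted p below 0.05. The number called higher was 3 on TPM without scaling and 1 with a minimum mean of 5 TPM. Cpt1b, a form of the malonyl-CoA-sensitive carnitine palmitoyltransferase, rose from 2.01 and 2.17 TPM to 4.63 and 4.43 TPM (log2 fold change 0.81, adjusted p = 0.0061 in limma). Cpt1a, the form usual in beta cells and more abundant here, was at 12.4 and 11.8 TPM in 2D and 11.7 and 12.1 TPM in 3D (adjusted p = 0.491 in limma). The AMPK subunit genes Prkab1 and Prkag2 moved in opposite directions (0.21, adjusted p = 0.0359, and -0.36, adjusted p = 0.0172, in limma).

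In cholesterol synthesis and uptake, the neighbouring SREBP pathway, 4 of 18 genes fell and 0 rose, with 1 higher at an unadjusted p below 0.05 and 1 called higher on TPM without scaling. Mvd, Mvk and Dhcr7 had log2 fold changes of -0.66, -0.52 and -0.29 (adjusted p = 0.0051, 0.0064 and 0.0158 in limma). Of these 7 lists, the share of genes passing was above the 38.0% of all genes only in that of activation and esterification, with 8 of 14. Without 2D replicate 2 this list had 3 of 14 called, beside 3238 of 12006 genes in all. It had 0 called without 3D replicate 1 and 1 without 3D replicate 2.

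**Figure D5:**
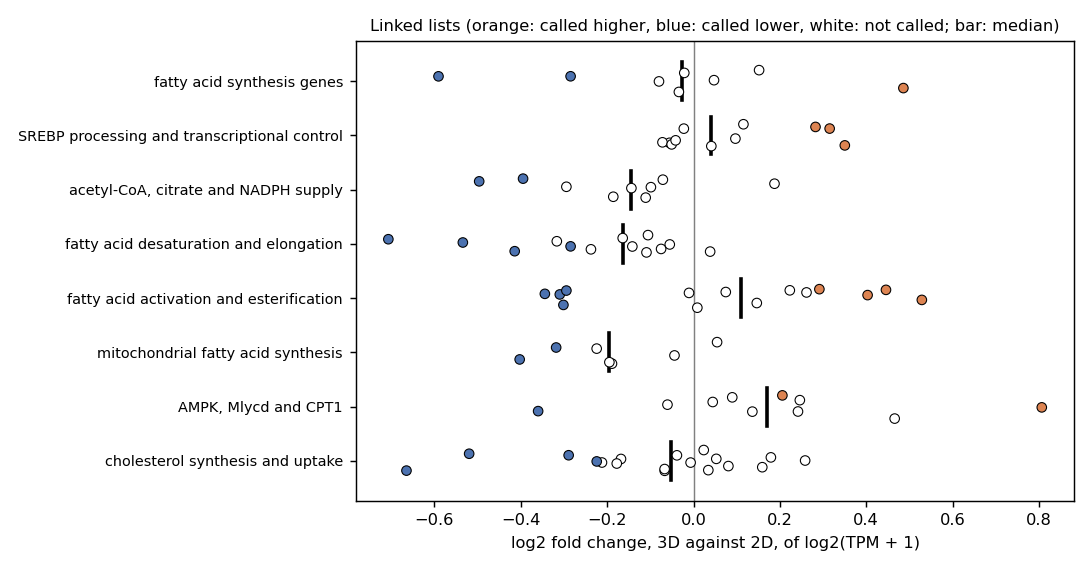
Log2 fold change of 3D against 2D (horizontal axis) of each tested gene in the fatty acid synthesis genes and the 7 linked lists, 1 point per gene, with called genes in colour and the median of each list as a bar. The list of desaturation and elongation lies mostly below 0, with 12 of 13 genes negative beside 6034 of all 11960. The fatty acid synthesis genes lie on both sides of 0. The lists were written with earlier results of these data known.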

How the data were processed

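RNA of 4 INS-1 cultures was sequenced as stranded single-end libraries. Per the labels and the study's methods, the authors checked reads with FastQC 0.11.8, quantified transcripts with Salmon 1.2 against rn4 plus human insulin, and deposited TPM, written with decimal commas. A count test was not run, since TPM hold no counts.

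TPM were summed per symbol, and the 11960 of 23360 genes with a mean of at least 1 TPM were kept. Samples were scaled with trimmed M values (unweighted, trims of 30% for M and 5% for A, factors 0.960 to 1.02). On log2(TPM + 1), limma 3.58.1 in R 4.3.3 compared the groups, with variances moderated along an expression trend, and p-values were adjusted after Benjamini and Hochberg over all genes kept. Genes with an adjusted p below 0.05 passed. This scale understates changes of low genes. The fit was tested on simulated TPM with known changes in a small share of genes and the same spread in both groups. Those settings differ from these data, so the simulation does not measure false calls here.

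The members and lists were chosen with earlier results of these data known. Named genes are the members, the 3 called genes of smallest adjusted p in each linked list, and Scap, Insig1, Slc25a1, Scd and Cpt1a. Hsd17b12 and Scd2 were added after their values were seen. Mlxipl, Pgd, Prkag1, Pecam1 and Col1a2 of the lists were not analysed here. Promoters are RefSeq's (GRCr8). Alternatives changed the scaling, minimum level, pseudocount, transcript summary, replicate block, variance model, threshold and cultures kept.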

Additional observations from a re-analysis of the deposited data

How the results depend on the processing

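The signs of Acaca, Me1, Elovl6 and Srebf1 were the same in all alternatives that tested them. Signs of genes that did not pass were less stable: on TPM as deposited the log2 fold change was 0.019 for Acss2 and 0.0079 for Elovl5, and from the most abundant transcript it was -0.011 for Acly. With each culture left out in turn it ran from -0.095 to 0.047 for Acss2, from -0.065 to 0.15 for Fasn and from -0.14 to 0.070 for Elovl5. The number of fatty acid synthesis genes called was 2 or 3 with all cultures kept (2 higher and 0 lower on TPM as deposited, against 1 higher and 2 lower as reported), 0 to 3 with a culture left out, and 0 at an adjusted p below 0.01 in limma (4 of 8 had an unadjusted p below 0.05). Of all genes 1418 passed at 0.01, and from 136 to 4515 with a culture left out. With a culture left out, the lone culture of its group is assumed to vary like the other group. The cause of these shifts was not tested. The summed TPM of the 9 genes was higher in 3D by 51.8 TPM after scaling, by 78.0 TPM as deposited and by 55.1 TPM with median of ratios scaling. The labels do not say whether same-numbered cultures were paired. Deviations of same-numbered cultures had a correlation of -0.0060 across 11960 genes, which with 2 cultures per condition does not settle it. With the replicate number as a block, 4814 genes and 3 fatty acid synthesis genes were called. Of 126 counts of the linked lists with all cultures kept, 9 moved by over 1.5 times, as did 23 of those with a culture left out. TPM do not retain the reads behind each value, so no counting error is given for low genes such as Acacb and Elovl6.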

Other observations

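A neighbouring SREBP target followed the replicate number and not the condition. Lss, lanosterol synthase of cholesterol synthesis, was at 77.2 TPM in 2D replicate 1, 22.3 TPM in 2D replicate 2, 72.9 TPM in 3D replicate 1 and 26.4 TPM in 3D replicate 2. The gap came from ENSRNOT00000085270.1, at 47.8 TPM in 2D replicate 1 and 43.6 TPM in 3D replicate 1 and listed at 0 in both cultures numbered 2, and from ENSRNOT00000081903.1, at 4.75 and 2.59 TPM and again 0 in both cultures numbered 2. ENSRNOT00000078412.1, of the same gene, stayed between 18.2 and 22.9 TPM in all 4. The gene was chosen after its values were seen. Of 11850 genes tested that were above 0 in all cultures, 4 were at least 2-fold higher in replicate 1 in both conditions and 5 in replicate 2, and 8 differed as much in opposite directions. No cause was tested.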
